A study of Mus musculus with 28 samples.

Results

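The comparison is between 2 lines of induced neural stem cells (miNSC) made from embryonic fibroblasts of the Sox2-GFP mouse strain, one made with the factor cocktail BKF and the other with KMF. Its members are the 4 libraries whose labels name these lines, 2 of BKF and 2 of KMF, out of 28 libraries in the series. The cocktails share K and F and differ in their remaining factor, B in one line and M in the other. The labels spell out only F, as eSox17FNV, an engineered Sox17 transcription factor; the other factors appear as single letters. In both lines the factors were carried by doxycycline-inducible lentiviruses together with the transactivator M2rtTA, and colonies were picked and expanded in neural stem cell medium with bFGF and EGF after doxycycline had been withdrawn. Each cocktail was represented by 1 line, so a difference of the cocktail and a difference of the line cannot be told apart, and passage numbers were not labelled. Nothing in the labels says that the libraries of a side came from separate colonies or cultures. The p-values therefore rest on the spread between the 2 libraries of a group, pooled over all 14 groups of the series. This spread may be technical.

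Other groups, each of 2 libraries, are set beside the lines where they help to place a level. These are the KF line from embryonic fibroblasts of the same strain, the BKF and KMF lines from tail-tip fibroblasts of Sox2-GFP mice aged 1.0 year, and NSC, which are neural stem cells from Sox2-GFP mice aged 2.5 years, at passages 2 and 5. For chromosome 1, four-factor lines from tail-tip fibroblasts, at passages 8 and 18, and from ear fibroblasts are added. Both came from Sox2-GFP mice aged 1.0 year. Lines made with BKF and KF from embryonic fibroblasts of the ICR strain are used there too. Below, BKF and KMF without a further word mean the embryonic Sox2-GFP lines. Embryonic fibroblasts themselves were not analysed here.

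Neural stem cells divide to renew themselves and can give neurons, astrocytes and oligodendrocytes. Their state is held by transcription factors such as Sox2 and by Notch, Wnt and growth factor signals, and their position along the body axis is written in patterning genes. Sox factors bind DNA together with POU factors, and exchange of one partner factor for another in a cocktail is a common way to ask what that factor contributes.

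Each gene has 1 normalised value per library, a whole number of a kind that the deposited table does not define. All libraries had nearly the same distribution, with totals of 15563679 to 15571626 and with 10 genes tied at the highest value of 92914 in each. Sequencing depth is therefore unknown, and the ties compress differences of the most abundant genes. Differences are given as BKF minus KMF in log2(value + 1) ± SE, a scale on which changes of low genes come out too small. A gene passed the test at an adjusted p under 0.05 in limma over 16275 genes. In 1541 of the 4160 genes listed at 0 in some library, no library has a value between 0 and 20, so a 0 is reported here as listed at 0. In these bulk libraries, fewer cells of a type and less RNA per cell cannot be told apart.

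The label of neural stem cells was checked against markers. Sox2, the defining factor, stood at 1213 and 1142 in BKF and 984 and 969 in KMF, and the intermediate filament gene Nes at 16127 and 16127 in BKF and 20143 and 21808 in KMF. The radial glial receptor phosphatase gene Ptprz1 had the value 15161 in all 4 libraries. Sox1, a factor of early neural tissue, was close to 0, with 6 and 6 in BKF and 5 and 3 in KMF, against 1039 and 1148 in NSC. Pdgfrb, a receptor of fibroblasts and pericytes, was listed at 0 in all 4, and the collagen gene Col1a1 had 12 and 14 in BKF and 18 and 11 in KMF. Other fibroblast markers were not low, and 12 of the 25 tested averaged 100 or more in a line. Fbln2 had 4004 and 4356 in BKF and 3303 and 3254 in KMF, and Fn1 had 916 and 1087 in BKF and 2224 and 2274 in KMF.

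BKF and KMF differed in 1670 of 16275 genes tested, or 10.3% of them. In BKF 808 genes were higher (4.96%) and 862 lower (5.30%), and 689 of those called differed at least 2-fold, 347 higher and 342 lower. The median absolute log2 difference over all genes was 0.204 between the means of the lines. Between single libraries it was 0.116 within BKF and 0.09 within KMF. Called or not, 2007 genes differed at least 2-fold between the means of the lines, against 989 between the BKF libraries and 960 between the KMF libraries. Means of 2 libraries vary less than single libraries, so these measures are not fully alike. The lines stood nearer to each other than to the KF line, from which BKF differed by a median of 0.401 and KMF by 0.421. Without BKF replicate 1, BKF replicate 2, KMF replicate 1 or KMF replicate 2 the count of calls was 982, 955, 945 and 868, and without the NSC libraries, whose passages differed by a median of 0.373, it was 2724.

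The largest rises in BKF were in genes that stood low in KMF, among them genes of lipid signalling, matrix turnover and transcription. Plcd1, a phosphoinositide-specific phospholipase C gene, had values of 94 and 108 in BKF and 4 and 2 in KMF, a difference of 4.72 ± 0.25 (adjusted p = 8.28e-09). Mmp14, the membrane-anchored matrix metalloproteinase, had 512 and 534 in BKF and 32 and 28 in KMF (4.08 ± 0.21, adjusted p = 5.54e-09). Pla2g7, which encodes the hydrolase of platelet-activating factor, had 1608 and 1458 in BKF and 79 and 82 in KMF (4.23 ± 0.61, adjusted p = 0.000265). For each of these genes the lowest BKF library was far above the highest KMF library, though a lack of overlap was a rule of their choice. Tox2, a gene of the HMG-box family, had 224 and 172 in BKF and 12 and 8 in KMF (4.19 ± 0.42, adjusted p = 9.04e-06). The early response gene Ier3 had 202 and 148 in BKF and 10 and 10 in KMF (3.98 ± 0.52, adjusted p = 0.000101), and Mfsd10, of a transporter family, had 92 and 120 in BKF and 6 and 8 in KMF (3.74 ± 0.30, adjusted p = 6.35e-07). In the KF line Plcd1 (374 and 346) and Ier3 (852 and 786) were above both lines, Mmp14 (308 and 234) and Pla2g7 (278 and 270) lay between them, Tox2 (182 and 168) was close to BKF and Mfsd10 was listed at 0.

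Eno1b, a gene nearly identical to the enolase gene Eno1, had 3953 and 3608 in BKF and 207 and 202 in KMF (4.20 ± 0.29, adjusted p = 1.36e-07), and Rtl8a, of a family of retrotransposon-derived genes with close copies, had 124 and 150 in BKF and 5 and 5 in KMF (4.52 ± 0.18, adjusted p = 2.69e-10). Reads of such copies may be split between them, so both values are uncertain. In 4 further genes 1 KMF library was listed at 0 and the other was not. Smc1b, a subunit of meiotic cohesin, had 252 and 228 in BKF and 0 and 80 in KMF, and Snap25, a component of the synaptic vesicle fusion machinery, had 120 and 106 in BKF and 0 and 30 in KMF. Pgbd1, a transposase-derived gene, had 138 and 144 in BKF and 0 and 38 in KMF, and Rmdn2, a regulator of microtubule dynamics, had 148 and 140 in BKF and 0 and 84 in KMF. The sides did not overlap, as the choice required, but the spread between the KMF libraries made the errors wide, from 0.96 for Pgbd1 to 1.26 for Snap25. The adjusted p of these genes ranged from 0.00608 (Pgbd1) to 0.0389 (Rmdn2). In leave-one-out fits the calls of Snap25 (without BKF replicate 1, BKF replicate 2 or KMF replicate 1) and Smc1b and Rmdn2 (without BKF replicate 1 or BKF replicate 2) were lost, at adjusted p of 0.0707 to 0.435.

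**Figure D1:**
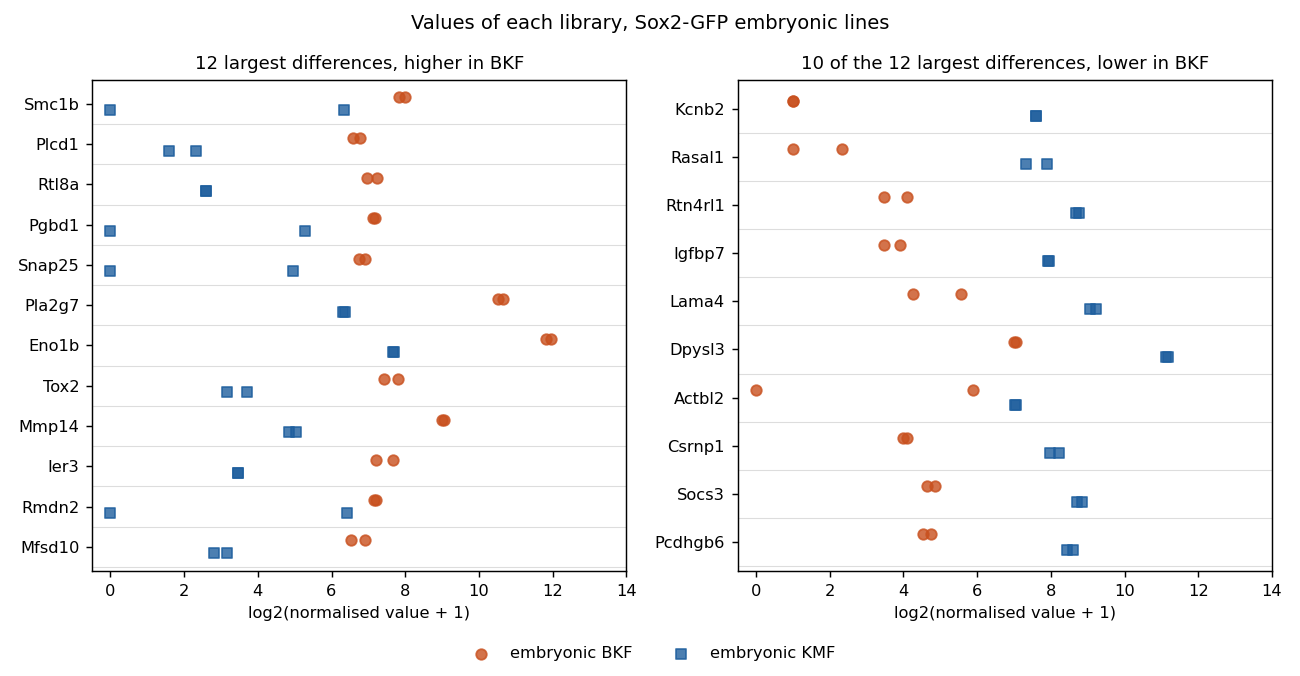
Normalised values of the 12 genes with the largest differences higher in BKF and of 10 of the 12 lower in BKF, among those past the threshold, as log2(value + 1), with 1 point per library, circles for BKF and squares for KMF. The sides do not overlap for any of the 22 genes because the choice required it. The KMF points of Smc1b, Pgbd1, Snap25 and Rmdn2 and the BKF points of Actbl2 include a library listed at 0.

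The genes with the largest falls in BKF included genes of neurite guidance, basement membrane and cytokine signalling. Dpysl3, of the collapsin response mediators that act on growth cones, had 128 and 132 in BKF and 2336 and 2236 in KMF, a difference of -4.13 ± 0.11 and the smallest adjusted p of all genes tested (2.22e-12). Its level in BKF was also below that of the KF line (3608 and 3528) and of NSC (3336 and 3166). Rtn4rl1, a relative of the Nogo receptor, had 10 and 16 in BKF and 412 and 436 in KMF (-4.96 ± 0.43, adjusted p = 1.90e-06). Here it was KMF that stood apart, since the KF line had 5 and 6. Lama4, a laminin chain of basement membranes, had 18 and 46 in BKF and 529 and 593 in KMF (-4.23 ± 0.41, adjusted p = 5.17e-06), against 43 and 34 in KF. Igfbp7, a secreted binding protein for insulin-like growth factors, had 10 and 14 in BKF and 243 and 245 in KMF (-4.25 ± 0.64, adjusted p = 0.000369), and 4 and 8 in KF. Rasal1, a gene that turns Ras off, had 1 and 4 in BKF and 160 and 236 in KMF (-5.95 ± 0.56, adjusted p = 4.12e-06) and was listed at 0 in KF.

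A gene of cytokine signalling and one of the early response were lower in BKF than in KMF and highest in the KF line among the 3 embryonic lines. Socs3, an inhibitor of cytokine signalling through JAK and STAT, had 28 and 24 in BKF and 458 and 415 in KMF (-4.02 ± 0.42, adjusted p = 1.21e-05), against 1960 and 1943 in KF. Csrnp1, a nuclear protein gene of the early response, had 15 and 16 in BKF and 252 and 296 in KMF (-4.05 ± 0.77, adjusted p = 0.00246), against 2416 and 2372 in KF. The potassium channel gene Kcnb2 had 1 and 1 in BKF and 194 and 192 in KMF (-6.60 ± 1.76, adjusted p = 0.0236), while the 2 libraries of KF, at 1 and 108, also stood far apart. The actin-like gene Actbl2, with 0 and 58 in BKF and 130 and 132 in KMF, had 1 BKF library listed at 0. Actbl2 resembles other actin genes, and the protocadherin Pcdhgb6, with 22 and 26 in BKF and 346 and 384 in KMF (-3.87 ± 0.40, adjusted p = 1.15e-05), shares exons with its cluster, so reads may be misassigned in both. Leaving out 1 library, the calls of Kcnb2 (whichever library was left out) and Actbl2 (without KMF replicate 1 or KMF replicate 2) were lost, at adjusted p of 0.101 to 0.112.

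Genes listed at 0 in both libraries of 1 side are given without a fold. By the rule of an average of at least 100 on the other side, 4 genes were listed at 0 in KMF. Tceal1, of a family of elongation factor A-like genes, had 682 and 701 in BKF, and Cpb2, a plasma carboxypeptidase gene, had 562 and 550. Papolb, a poly(A) polymerase gene with a close relative, had 130 and 154 in BKF, and Prr16 had 112 and 156. The KF line had Tceal1 at 604 and 666 and Papolb at 145 and 102. Without a single library the calls of Tceal1, Cpb2 and Prr16 (whichever library was left out) were lost, at adjusted p of 0.0547 to 0.133.

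In the other direction 10 genes were listed at 0 in BKF, of which the 6 highest in KMF are named. Sim1, a transcription factor of the hypothalamus, had 693 and 682 in KMF and was listed at 0 in both libraries of the KF line, the tail-tip BKF and KMF lines and NSC. Spock3, a proteoglycan gene of the testican family, had 430 and 463 in KMF and was likewise listed at 0 in those groups. Ermn, a cytoskeletal gene of myelinating oligodendrocytes, had 581 and 498 in KMF. The kinase gene Stk26 had 464 and 451, the lectin-like receptor gene Klri2 had 424 and 456 and the olfactory receptor gene Olfr25 had 423 and 330 in KMF. Values above 0 of these genes started at 327 for Sim1, 430 for Spock3, 353 for Ermn, 342 for Stk26, 343 for Klri2 and 330 for Olfr25 over all 28 libraries, so no library held a low value. In Stk26 and Ermn some other groups were split, with 0 and 348 in KF and 366 and 0 in the tail-tip KMF line, which shows that 2 libraries of 1 group can fall on either side of such a step. On removal of 1 library the calls of Sim1, Spock3, Ermn, Stk26, Klri2 and Olfr25 (whichever library was left out) were lost, at adjusted p of 0.0769 to 0.174.

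The genes of glycolysis and the response to low oxygen stood higher in BKF as a group. Cells short of oxygen stabilise hypoxia-inducible factors, which bind sequences such as ACGTG near their targets and raise glucose transporters, glycolytic enzymes and the factor VEGF. Of 20 list members in the table, all had a difference above 0, and the median difference was 1.44, against 0.01 over all genes tested. The test was passed by 9 as higher (45%, against 4.96% of all genes tested) and by 0 as lower (against 5.30%). The summed value of the 20 genes was 245003 and 250148 in the BKF libraries and 97677 and 101357 in the KMF libraries. The count rested on the whole set of libraries: it was 5 without BKF replicate 1, 3 without BKF replicate 2, 5 without KMF replicate 1 and 4 without KMF replicate 2, and it was 17 without the NSC libraries.

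Promoters of the 4 members with the smallest adjusted p are shown because ACGTG is a core of the sequences that hypoxia-inducible factors bind. They are the windows of 250 bases before to 50 after the annotated start, from RefSeq on GRCm38.p6, 5′ to 3′ along the gene's strand, with ACGTG or its reverse complement CACGT in capitals. The windows are chr12:54203825-54204124 (minus strand), chr4:119108495-119108794 (plus strand), chr7:138909457-138909756 (minus strand) and chr2:71872974-71873273 (plus strand), the last being the first of 2 listed windows of Pdk1.
Egln3: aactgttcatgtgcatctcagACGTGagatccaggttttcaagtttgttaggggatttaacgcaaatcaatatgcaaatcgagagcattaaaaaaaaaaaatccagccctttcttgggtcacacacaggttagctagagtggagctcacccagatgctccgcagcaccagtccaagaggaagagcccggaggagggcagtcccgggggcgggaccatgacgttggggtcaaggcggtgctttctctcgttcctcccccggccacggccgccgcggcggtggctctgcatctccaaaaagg
Slc2a1: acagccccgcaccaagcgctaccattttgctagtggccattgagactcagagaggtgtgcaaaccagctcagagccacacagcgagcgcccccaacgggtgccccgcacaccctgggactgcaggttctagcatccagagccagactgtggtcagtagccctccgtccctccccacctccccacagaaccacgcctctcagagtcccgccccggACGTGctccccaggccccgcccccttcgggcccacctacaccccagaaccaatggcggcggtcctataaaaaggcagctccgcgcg
Bnip3: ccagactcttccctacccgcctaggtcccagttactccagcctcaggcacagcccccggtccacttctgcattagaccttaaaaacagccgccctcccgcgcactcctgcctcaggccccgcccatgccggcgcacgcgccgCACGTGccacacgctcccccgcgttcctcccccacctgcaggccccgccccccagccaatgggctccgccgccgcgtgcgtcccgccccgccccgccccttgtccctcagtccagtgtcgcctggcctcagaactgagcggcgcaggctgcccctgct
Pdk1: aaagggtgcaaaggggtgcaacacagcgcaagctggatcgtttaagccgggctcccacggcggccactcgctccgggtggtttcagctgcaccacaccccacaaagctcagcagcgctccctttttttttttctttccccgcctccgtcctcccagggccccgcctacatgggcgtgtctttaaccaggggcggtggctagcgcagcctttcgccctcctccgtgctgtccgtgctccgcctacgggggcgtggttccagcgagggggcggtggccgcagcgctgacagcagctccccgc
Egln3 and Slc2a1 each hold 1 match, and in Bnip3 the palindrome CACGTG counts on both strands. The Pdk1 window holds none. A match in at least 1 window was found for 6 of the 9 members that passed the test and for 6 of the 9 others with a listed window, against 27.2% of the 11898 tested genes with a window and 19.6% of all 32851 windows. A match describes the letters in the window, not binding.

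Egln3, a prolyl hydroxylase that marks hypoxia-inducible factors for degradation, had 1153 and 1120 in BKF and 323 and 262 in KMF, a difference of 1.96 ± 0.20 (adjusted p = 1.21e-05). The glucose transporter gene Slc2a1 had 1800 and 1792 in BKF and 711 and 613 in KMF (1.44 ± 0.25, adjusted p = 0.00136). Bnip3, a mitochondrial protein of mitophagy, had 2799 and 2548 in BKF and 422 and 307 in KMF (2.89 ± 0.57, adjusted p = 0.00362). In all of them the KMF libraries formed a separate low pair. Pdk1, a kinase that holds pyruvate back from mitochondrial oxidation, had 2876 and 2854 in BKF and 586 and 530 in KMF (2.36 ± 0.53, adjusted p = 0.00852). The angiogenic factor gene Vegfa had 5430 and 5602 in BKF and 941 and 1055 in KMF (2.47 ± 0.67, adjusted p = 0.0259). The remaining members that passed encode glycolytic enzymes. Pgk1 (phosphoglycerate kinase) had 32713 and 32713 in BKF and 10890 and 15156 in KMF (1.35 ± 0.35, adjusted p = 0.0212), Pgam1 (phosphoglycerate mutase) 17981 and 21805 in BKF and 7153 and 7516 in KMF (1.43 ± 0.34, adjusted p = 0.0127) and Gpi1 (glucose phosphate isomerase) 21805 and 24587 in BKF and 10338 and 10890 in KMF (1.13 ± 0.26, adjusted p = 0.0107). Eno1 (enolase) stood at the tied highest value in both BKF libraries and at 32713 and 28060 in KMF, so its difference of 1.62 ± 0.38 (adjusted p = 0.0113) is compressed. With 1 library left out, the calls of Vegfa (whichever library was left out), Pdk1 and Eno1 (without BKF replicate 1, BKF replicate 2 or KMF replicate 2), Pgk1 (without BKF replicate 1, BKF replicate 2 or KMF replicate 1) and Pgam1 and Gpi1 (without BKF replicate 2, KMF replicate 1 or KMF replicate 2) were lost, at adjusted p of 0.0528 to 0.177.

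Other members missed the threshold. Apart from Pfkp, with 68 and 62 in BKF and 52 and 70 in KMF, their sides did not overlap. With 2 libraries a side this is weak evidence of a difference. Hk2, the inducible hexokinase, had 949 and 925 in BKF and 307 and 322 in KMF (adjusted p = 0.0722), Slc2a3, a neuronal glucose transporter, 649 and 683 in BKF and 234 and 236 in KMF (adjusted p = 0.0525) and Ldha, lactate dehydrogenase, 21808 and 20143 in BKF and 9950 and 10340 in KMF (adjusted p = 0.0820). Hk1, the general hexokinase, had 1594 and 1516 in BKF and 1408 and 1326 in KMF (adjusted p = 0.590). Outside the list, Hif1a had 3608 and 3666 in BKF and 4242 and 4170 in KMF (adjusted p = 0.0506). It is the gene of the hypoxia-inducible factor subunit that is regulated mainly as a protein.

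Against the other groups, the embryonic KMF line was below both tail-tip lines for all 9 members that passed and below the KF line for all but Eno1. Bnip3 had 2922 and 2745 in the KF line, 4840 and 4930 in the tail-tip BKF line, 4005 and 4242 in the tail-tip KMF line and 323 and 366 in NSC, and Pdk1 had 2567 and 2640 in KF, 5028 and 4568 in tail-tip BKF, 4838 and 4633 in tail-tip KMF and 404 and 344 in NSC. For both genes the embryonic KMF values lay nearer to NSC than to the tail-tip line made with the same cocktail. In the tail-tip comparison 3 of the 20 members passed as higher in BKF, against 6.75% of all genes tested, and 0 as lower. The median difference there was 0.39. The difference of the embryonic and tail-tip differences passed the test for Egln3, Slc2a1 and Bnip3 (adjusted p = 0.00260, 0.0434 and 0.0427) and missed it for Pdk1 (0.0506).

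**Figure D2:**
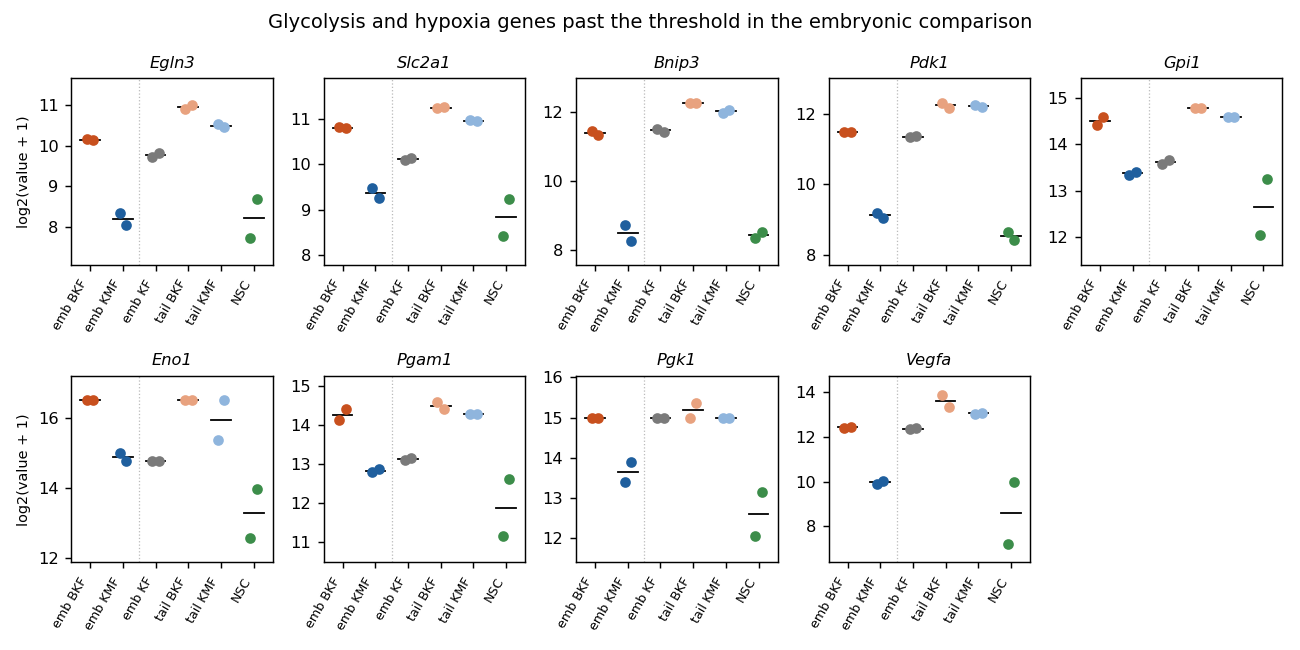
The 9 genes of glycolysis and hypoxia past the threshold, as log2(value + 1) on axes that do not start at 0, by group, with 1 point per library and a line at the mean. The embryonic KMF points lie below the embryonic BKF points and both tail-tip lines in all 9 panels, while the KF line sits near KMF for Eno1, Pgam1 and Gpi1.

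The genes of candidate cocktail factors were read for their levels, since the letters B and M are not expanded in the labels. Whether the counted reads come from the cell's own gene or from a lentiviral copy cannot be told apart. Pou3f4, a POU factor of the developing brain also called Brn4, was the only 1 of 6 such genes in the table to pass, with 1106 and 1062 in BKF and 387 and 412 in KMF (1.44 ± 0.42, adjusted p = 0.0393). The sides did not overlap, and the KF line lay between them at 706 and 662. In the fit over all libraries the call of Pou3f4 was lost with a pseudocount of 0.1 (adjusted p = 0.411). It was also lost with quantile normalisation (adjusted p = 0.11). In the tail-tip pair Pou3f4 had 745 and 548 in BKF and 1388 and 1444 in KMF (adjusted p = 0.0896). Myc, a factor of growth and proliferation, had 2704 and 2682 in BKF and 3666 and 3427 in KMF (adjusted p = 0.477). In the tail-tip pair Myc was higher in BKF, with 1400 and 1282 in BKF and 466 and 531 in KMF (adjusted p = 0.00481). Klf4, a zinc finger factor, had 342 and 334 in BKF and 484 and 439 in KMF, far under the 3366 and 3398 of the KF line. Sox17 stood at 12 and 6 in BKF and 4 and 8 in KMF, with overlap, against 384 and 254 in the tail-tip BKF line. Pou3f2, a close relative of Pou3f4, had 523 and 562 in BKF and 494 and 481 in KMF. In leave-one-out fits the call of Pou3f4 (whichever library was left out) was lost, at adjusted p of 0.142 to 0.167.

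Of 12 dorsoventral patterning factors of the neural tube 5 were higher in BKF (41.7%, against 4.96% of all genes tested) and 0 lower. The median difference was 1.01, with 8 of the 12 above 0 and 4 below. The count was 5 whichever library was left out, but the calls of Nkx6-1 and Nkx2-2 were lost with a pseudocount of 10 (adjusted p = 0.111 and 0.0756) and that of Zic2 with one of 0.1 (adjusted p = 0.139). Zic1 and Zic2, zinc finger factors of the dorsal neural tube and cerebellum, were the most abundant of them. Zic1 had 938 and 852 in BKF and 156 and 131 in KMF (2.64 ± 0.46, adjusted p = 0.00139), and Zic2 had 179 and 120 in BKF and 22 and 18 in KMF (2.82 ± 0.45, adjusted p = 0.000656). Dbx2, a factor of the intermediate neural tube, had 38 and 40 in BKF and was listed at 0 in KMF, while NSC had 1278 and 2191. The ventral factors Nkx6-1, with 6 and 4 in BKF and 0 and 0 in KMF, and Nkx2-2, with 12 and 18 in BKF and 2 and 1 in KMF, passed at levels near 0. Pax6 and Pax7, which mark progenitor domains, did not pass, with 445 and 473 in BKF and 566 and 512 in KMF for Pax6 and 142 and 190 in BKF and 256 and 207 in KMF for Pax7.

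Of 10 midbrain and hindbrain genes tested, 3 were higher (30%) and 2 lower (20%) in BKF, against 4.96% and 5.30% of all genes tested. The engrailed gene En2, which patterns the midbrain and cerebellum, had 330 and 344 in BKF and 86 and 91 in KMF (1.92 ± 0.45, adjusted p = 0.0112), and its relative En1 had 148 and 140 in BKF and 82 and 59 in KMF (1.04 ± 0.29, adjusted p = 0.0331). Lmx1b, needed for midbrain dopamine and hindbrain serotonin neurons, had 59 and 63 in BKF and 9 and 15 in KMF (2.29 ± 0.31, adjusted p = 0.000141). Of the 5 miNSC lines shown embryonic KMF was lowest for Lmx1b, which had 40 and 37 in KF, 68 and 56 in tail-tip BKF and 72 and 99 in tail-tip KMF. The floor plate factor Foxa1, with 6 and 2 in BKF and 26 and 26 in KMF, and Irx2, with 190 and 214 in BKF and 310 and 292 in KMF, were lower in BKF. None of 8 forebrain factors tested passed, and 2 of them had a mean of 100 or more in a line. Emx2, a factor of the dorsal forebrain, had 128 and 142 in BKF and 148 and 172 in KMF (adjusted p = 0.219). The count without 1 of the 4 libraries was 1 higher and 1 to 2 lower among the midbrain and hindbrain genes and 0 to 1 higher and 0 to 1 lower among the forebrain transcription factors. Without a single library the calls of En2 and En1 (whichever library was left out) and Irx2 (without BKF replicate 1, KMF replicate 1 or KMF replicate 2) were lost, at adjusted p of 0.0503 to 0.268.

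Hox genes, which record position along the trunk, moved at low levels. None of 9 tested genes of paralog groups 1 to 4 passed. Hoxa3 had 399 and 440 in BKF and 456 and 443 in KMF, and Hoxa2 350 and 317 in BKF and 330 and 336 in KMF. Of 14 tested in groups 5 to 9, Hoxb6, Hoxb8 and Hoxd9 were higher in BKF (21.4%, against 4.96% of all genes tested). Hoxc8 and Hoxc9 were lower (14.3%, against 5.30%). Hoxb8 had 80 and 64 in BKF and 49 and 30 in KMF (0.88 ± 0.25, adjusted p = 0.0357), Hoxd9 20 and 23 in BKF and 8 and 9 in KMF, and Hoxb6 6 and 4 in BKF and 0 and 0 in KMF. Hoxa5, the most abundant of that group, did not pass, with 500 and 482 in BKF and 399 and 404 in KMF. Of 7 tested in groups 10 and above, Hoxc10 was lower (14.3%), listed at 0 in BKF with 16 and 8 in KMF. The genes Hoxc8, Hoxc9 and Hoxc10, which lie in 1 cluster, had at most 8, 5 and 16 in a KMF library and were listed at 0 in BKF and in KF. With a library left out the count was 1 to 2 higher and 1 lower among the Hox genes of paralog groups 5 to 9 and 0 to 1 higher among the Hox genes of paralog groups 10 and above. With 1 library left out, the calls of Hoxd9 and Hoxc8 (whichever library was left out) and Hoxb8 (without BKF replicate 1, BKF replicate 2 or KMF replicate 2) were lost, at adjusted p of 0.0680 to 0.382.

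Among 25 neural stem and progenitor markers 4 were higher (16%, against 4.96% of all genes tested) and 1 lower in BKF (4%, against 5.30%). The glial factor Sox9 had 998 and 1079 in BKF and 771 and 654 in KMF (0.55 ± 0.11, adjusted p = 0.00537). The RNA-binding protein gene Msi1 had 670 and 676 in BKF and 490 and 531 in KMF (0.40 ± 0.09, adjusted p = 0.00661). The radial glial lipid carrier Fabp7 stood at the tied highest value in both BKF libraries, against 32713 and 32713 in KMF. The Notch effector Hes1 went the other way, with 282 and 232 in BKF and 1918 and 1918 in KMF (-2.90 ± 0.60, adjusted p = 0.00470). Among other abundant markers, Slc1a3, the glial glutamate transporter, had 17984 and 21808 in BKF and 15161 and 16127 in KMF, and Vim had 42158 and 42158 in BKF and 92914 and 42158 in KMF, with overlap, and neither passed. Fits lacking 1 library gave 1 to 3 higher among the neural stem and progenitor markers. Leaving out 1 library, the calls of Fabp7 (whichever library was left out), Sox9 (without BKF replicate 2 or KMF replicate 2) and Msi1 (without KMF replicate 1) were lost, at adjusted p of 0.0603 to 0.118.

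Of 17 astrocyte genes tested 5 were lower in BKF (29.4%, against 5.30% of all genes tested) and 1 higher (5.88%, against 4.96%), while the astrocyte filament gene Gfap did not pass, with 248 and 206 in BKF and 171 and 166 in KMF. Aqp4, the water channel of astrocyte endfeet, had 121 and 120 in BKF and 670 and 617 in KMF (-2.41 ± 0.24, adjusted p = 8.22e-06). Agt, which encodes angiotensinogen, had 136 and 174 in BKF and 878 and 928 in KMF (-2.55 ± 0.37, adjusted p = 0.000276). Sparcl1, a secreted protein that promotes synapse formation, had 812 and 858 in BKF and 4355 and 4412 in KMF (-2.39 ± 0.31, adjusted p = 9.93e-05). For these genes BKF was the lowest of the 5 miNSC lines shown, with 1074 and 1065 for Aqp4 and 3366 and 3504 for Agt in the KF line. The calcium-binding protein gene S100b had 190 and 201 in BKF and 577 and 521 in KMF (-1.48 ± 0.26, adjusted p = 0.00141), and the aldolase gene Aldoc had 6859 and 6986 in BKF and 10890 and 11648 in KMF (-0.70 ± 0.18, adjusted p = 0.0194). Glul, the glutamine synthetase gene, was higher in BKF, with 5090 and 5432 in BKF and 3139 and 3139 in KMF (0.74 ± 0.15, adjusted p = 0.00402). The gap junction gene Gja1 had 1736 and 1862 in BKF and 1872 and 1918 in KMF and the glutamate transporter Slc1a2 628 and 688 in BKF and 786 and 755 in KMF, and neither passed. The summed value of the 17 genes was 29897 and 30750 in BKF and 35067 and 36314 in KMF. Without a single library the call of Aldoc (whichever library was left out) was lost, at adjusted p of 0.0718 to 0.126.

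Genes of neurons and oligodendrocytes that passed were higher in BKF. Of 14 neuron markers tested, Snap25 (above) and Dlg4, a scaffold of excitatory synapses with 1736 and 1882 in BKF and 1190 and 1248 in KMF (0.57 ± 0.09, adjusted p = 0.000583), were higher in BKF (14.3%, against 4.96% of all genes tested) and 0 were lower. Tubb3, a neuronal tubulin, had 117 and 110 in BKF and 59 and 88 in KMF (adjusted p = 0.133), and the young neuron marker Dcx 317 and 296 in BKF and 334 and 381 in KMF. Of 12 oligodendrocyte lineage markers 2 were higher (16.7%) and 0 lower. Olig2, a factor of oligodendrocyte and motor neuron progenitors, had 17984 and 17984 in BKF and 9708 and 9950 in KMF (0.87 ± 0.24, adjusted p = 0.0276), and the precursor receptor gene Gpr17 had 10 and 13 in BKF and 2 and 0 in KMF. The related factor Olig1 had 1 value, 42162, in all 4 libraries. Cspg4, a proteoglycan of precursor cells, had 674 and 826 in BKF and 288 and 322 in KMF (adjusted p = 0.0664). Fits lacking 1 library gave 1 to 2 higher among the neuron markers and 0 to 1 higher among the oligodendrocyte lineage markers. With 1 library left out, the calls of Olig2 (whichever library was left out) and Gpr17 (without BKF replicate 1, BKF replicate 2 or KMF replicate 2) were lost, at adjusted p of 0.0639 to 0.204.

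**Figure D3:**
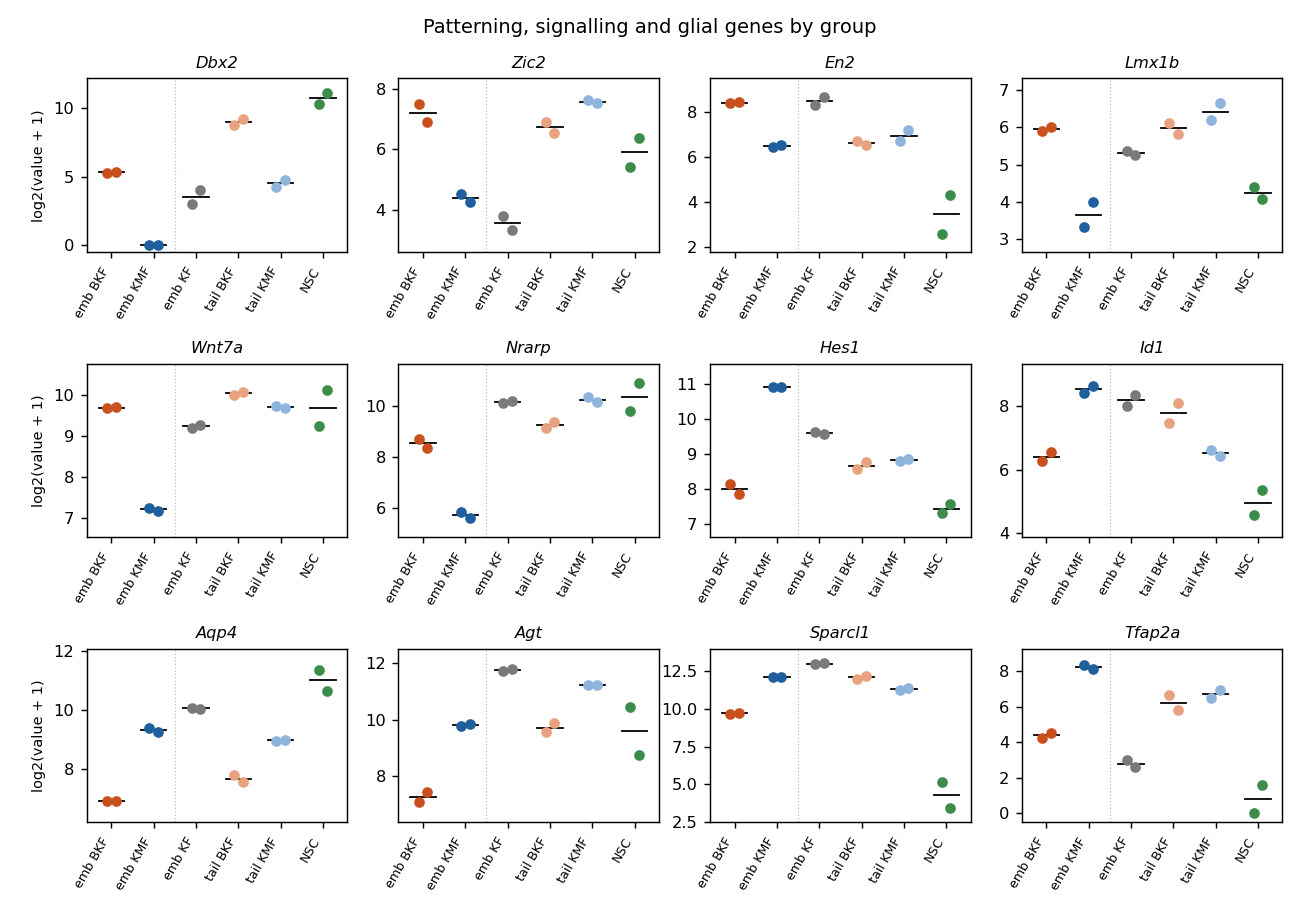
Patterning, signalling and glial genes as log2(value + 1), on axes that do not start at 0, by group with 1 point per library and a line at the mean; the dotted line separates the lines compared from the other groups. Embryonic KMF lies below the other miNSC lines shown for Lmx1b, Wnt7a and Nrarp and above them for Hes1 and Tfap2a, while embryonic BKF is lowest for Aqp4, Agt and Sparcl1 among the miNSC lines.

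Components of Notch signalling, which keeps progenitors undifferentiated through contact between neighbouring cells, moved both ways. The ligand gene Dll1 had 1984 and 2048 in BKF and 1132 and 1140 in KMF (0.83 ± 0.23, adjusted p = 0.0326). Its call was lost with a pseudocount of 0.1 (adjusted p = 0.117) and with quantile normalisation (adjusted p = 0.078). The ligand gene Jag1 had 582 and 700 in BKF and 1239 and 1079 in KMF (-0.86 ± 0.25, adjusted p = 0.0368). Of the targets, Nrarp, a feedback inhibitor, was higher with 418 and 326 in BKF and 58 and 49 in KMF (2.77 ± 0.69, adjusted p = 0.0168), while Hes1 (above) was lower. Hes5, the other main effector in neural progenitors, did not pass, with 227 and 220 in BKF and 150 and 172 in KMF. In all 2 of 14 tested were higher and 2 lower (14.3% each way, against 4.96% higher and 5.30% lower of all genes). The count without 1 of the 4 libraries was 0 higher and 1 lower among the Notch pathway genes. Leaving out 1 library, the calls of Dll1, Jag1 and Nrarp (whichever library was left out) were lost, at adjusted p of 0.0653 to 0.222.

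Of 22 Wnt pathway genes 6 were higher (27.3%, against 4.96% of all genes tested) and 2 lower in BKF (9.09%, against 5.30%). Among the ligands, Wnt7a, which acts on brain vessels and progenitors, had 824 and 834 in BKF and 151 and 145 in KMF (2.48 ± 0.18, adjusted p = 3.38e-07), and Wnt7b had 1074 and 1160 in BKF and 528 and 586 in KMF (1.00 ± 0.28, adjusted p = 0.0303). The ligand genes Wnt4, with 14 and 7 in BKF and 1 and 1 in KMF, and Wnt5b, with 20 and 29 in BKF and 6 and 11 in KMF, passed at low levels. With a pseudocount of 0.1 the calls of Wnt7b and Wnt5b were lost (adjusted p = 0.569 and 0.054). Quantile normalisation lost them too (adjusted p = 0.123 and 0.0883). The receptor gene Fzd3 was higher with 5321 and 7288 in BKF and 3635 and 3608 in KMF (0.78 ± 0.18, adjusted p = 0.00915), and Fzd1 lower with 697 and 622 in BKF and 1194 and 1046 in KMF (-0.76 ± 0.18, adjusted p = 0.0130). Lgr5, a receptor for R-spondins and a Wnt target, had 504 and 520 in BKF and 361 and 386 in KMF (0.45 ± 0.12, adjusted p = 0.0252), and the secreted Wnt antagonist Sfrp2 had 36 and 40 in BKF and 98 and 97 in KMF (-1.34 ± 0.26, adjusted p = 0.00316). In the tail-tip pair 1 of the same genes was higher and 7 were lower in BKF, against 6.75% and 6.22% of all genes tested. Fzd3 was among the lower ones, with 5602 and 3504 in BKF and 6859 and 7153 in KMF. With a library left out the count was 2 to 3 higher and 1 to 2 lower among the Wnt pathway genes. On removal of 1 library the calls of Wnt7b, Wnt5b and Lgr5 (whichever library was left out), Fzd3 (without BKF replicate 2, KMF replicate 1 or KMF replicate 2) and Fzd1 (without BKF replicate 2 or KMF replicate 1) were lost, at adjusted p of 0.0552 to 0.319.

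In BMP signalling 2 of 18 genes were higher (11.1%, against 4.96% of all genes tested) and 1 lower (5.56%, against 5.30%). Id1, a direct BMP target that blocks bHLH factors, had 76 and 93 in BKF and 342 and 396 in KMF (-2.12 ± 0.39, adjusted p = 0.00196), the receptor gene Bmpr1b had 536 and 578 in BKF and 330 and 364 in KMF (0.68 ± 0.18, adjusted p = 0.0212), and the inhibitory Smad gene Smad6 had 5 and 4 in BKF and 0 and 2 in KMF. Of 24 growth factor receptor and ERK feedback genes 0 were higher and 2 lower (8.33%): the ERK phosphatase gene Dusp4 had 354 and 310 in BKF and 1081 and 1106 in KMF (-1.72 ± 0.35, adjusted p = 0.00416) and the FGF target Etv5 8894 and 10338 in BKF and 20138 and 17981 in KMF (-0.99 ± 0.20, adjusted p = 0.00488). Of 11 Hedgehog genes 1 was higher and 1 lower (9.09% each way). Evc, a ciliary mediator of the pathway, had 76 and 96 in BKF and 18 and 17 in KMF (2.22 ± 0.17, adjusted p = 3.53e-07), and the co-receptor gene Gas1 had 4078 and 3953 in BKF and 6576 and 6861 in KMF (-0.74 ± 0.11, adjusted p = 0.000427). Among 14 YAP targets and partners 0 were higher and 4 lower (28.6%). They were Crim1, with 542 and 607 in BKF and 1742 and 1636 in KMF (-1.56 ± 0.26, adjusted p = 0.000855), F3, Wwtr1 and Ctgf. The coagulation factor receptor gene F3 had 177 and 156 in BKF and 264 and 268 in KMF. The coactivator gene Wwtr1 had 1787 and 1560 in BKF and 2078 and 2190 in KMF. The matricellular gene Ctgf had 10 and 14 in BKF and 56 and 62 in KMF. Its adjusted p of 0.05 lay just under the threshold before rounding. The call of Ctgf was lost with a pseudocount of 10 or 0.1 (adjusted p = 0.0559 and 0.217) and with the 20 miNSC libraries only (adjusted p = 0.0642). It was also lost without the filter (adjusted p = 0.0519) and without the trend of the variance (adjusted p = 0.0542). Fits lacking 1 library gave 0 to 1 higher and 1 to 2 lower among the BMP pathway and Id genes, 0 to 1 higher and 2 to 3 lower among the YAP target genes and 1 to 2 lower among the growth factor and ERK feedback genes. In leave-one-out fits the calls of Bmpr1b and Ctgf (whichever library was left out), Smad6 (without BKF replicate 1, BKF replicate 2 or KMF replicate 1), Wwtr1 (without BKF replicate 2, KMF replicate 1 or KMF replicate 2) and Etv5 (without BKF replicate 1 or KMF replicate 1) were lost, at adjusted p of 0.0505 to 0.229.

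The secreted and matrix genes of the brain split between the lines, with 3 of 19 higher (15.8%) and 5 lower in BKF (26.3%), against 4.96% and 5.30% of all genes tested. Ptn, a growth factor that binds the receptor phosphatase made by Ptprz1, was at the tied highest value in both BKF libraries, against 21805 and 24587 in KMF (adjusted p = 2.26e-05). The proteoglycan gene Vcan had 4838 and 5602 in BKF and 9950 and 9950 in KMF (-0.93 ± 0.15, adjusted p = 0.000547), and its relative Ncan had 9706 and 12122 in BKF and 7288 and 7153 in KMF (0.59 ± 0.17, adjusted p = 0.0326). Sparc, a collagen-binding glycoprotein, was lower with 6701 and 7798 in BKF and 13042 and 13042 in KMF (-0.85 ± 0.21, adjusted p = 0.0164). Of the laminin chains, Lamc1 had 3552 and 4127 in BKF and 6859 and 6701 in KMF, and Lamb2 1374 and 1464 in BKF and 941 and 892 in KMF. Sparcl1 (above) was lower, and the fibrillar collagen gene Col11a1 had 1091 and 1160 in BKF and 1782 and 1787 in KMF (-0.67 ± 0.12, adjusted p = 0.00139). The count without 1 of the 4 libraries was 1 to 2 higher and 3 to 4 lower among the matrix and secreted glycoprotein genes of the brain. Without a single library the calls of Lamc1 and Lamb2 (whichever library was left out), Ncan (without BKF replicate 2, KMF replicate 1 or KMF replicate 2) and Sparc (without BKF replicate 1, KMF replicate 1 or KMF replicate 2) were lost, at adjusted p of 0.0538 to 0.277.

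Of 26 axon guidance genes 3 were higher and 3 lower in BKF, or 11.5% each way, against 4.96% higher and 5.30% lower of all genes tested. The ligands Sema3a, with 1636 and 1643 in BKF and 1112 and 992 in KMF, Ntn1, with 4128 and 4522 in BKF and 2488 and 2432 in KMF, and Sema5a, with 358 and 377 in BKF and 97 and 104 in KMF, were higher. Nrp1, a receptor for the product of Sema3a, was lower with 276 and 250 in BKF and 572 and 601 in KMF (-1.16 ± 0.17, adjusted p = 0.000294). Efnb2, an ephrin ligand, had 74 and 83 in BKF and 262 and 214 in KMF (-1.58 ± 0.20, adjusted p = 9.75e-05), and the ephrin receptor gene Epha3 had 124 and 140 in BKF and 220 and 207 in KMF. Among 13 cadherins 1 passed in each direction (7.69% each way, close to the shares of all genes). Cdh22 was higher, with 168 and 142 in BKF and 26 and 20 in KMF, and Cdh13 lower, with 524 and 454 in BKF and 1358 and 1319 in KMF (-1.45 ± 0.21, adjusted p = 0.000223). Of 18 potassium channel genes 1 was higher (5.56%) and 2 lower (11.1%): Kcnj16, an inward rectifier of glia, had 840 and 900 in BKF and 547 and 552 in KMF (0.66 ± 0.09, adjusted p = 0.000104), while the calcium-activated Kcnn2, with 100 and 110 in BKF and 655 and 592 in KMF, and the channel subunit gene Kcne1l, with 3 and 4 in BKF and 18 and 24 in KMF, were lower. With a library left out the count was 0 to 2 higher among the cadherin genes and 1 lower among the potassium channel genes. With 1 library left out, the calls of Sema5a and Kcnn2 (whichever library was left out), Epha3 (without BKF replicate 1, KMF replicate 1 or KMF replicate 2) and Cdh22 (without BKF replicate 1 or KMF replicate 2) were lost, at adjusted p of 0.0613 to 0.161.

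Markers of other cell types that the cultures could hold were followed as well. Of 25 fibroblast markers 1 was higher (4%, against 4.96% of all genes tested) and 5 lower in BKF (20%, against 5.30%), and 12 of the 25 averaged 100 or more in a line. The median difference of the list was -1.23, with 20 of the 25 below 0, and 10 passed as lower without the NSC libraries and 9 in a fit of the 4 libraries alone. The summed value of the list was 8644 and 9193 in BKF and 10226 and 9922 in KMF. Twist1, a mesenchymal factor with 338 and 319 in BKF and 427 and 446 in KMF (adjusted p = 0.0466), was the most abundant of those that passed. The proteoglycan gene Dcn was listed at 0 in BKF and had 172 and 166 in KMF (adjusted p = 0.0640), the protease gene Fap was listed at 0 in BKF and had 154 and 78 in KMF (adjusted p = 0.0515), and the proteoglycan gene Lum had 0 and 88 in BKF and 258 and 256 in KMF (adjusted p = 0.171). These 3 genes did not pass. The sides did not overlap in any of them, which with 2 libraries a side is weak evidence of a difference. Thy1, Bgn, Twist2 and Loxl1 passed at levels of at most 10, 15, 3 and 8 in a KMF library, and Lox, a collagen cross-linking enzyme, had 64 and 46 in BKF and was listed at 0 in KMF. Of 8 neural crest and Schwann cell markers 2 were lower (25%, against 5.30% of all genes tested) and 1 higher (12.5%, against 4.96%). Tfap2a, a factor of neural crest and surface ectoderm, was lower with 18 and 22 in BKF and 321 and 274 in KMF (-3.83 ± 0.44, adjusted p = 3.21e-05). The melanocyte factor Mitf was lower too, with 86 and 92 in BKF and 146 and 145 in KMF. Ednrb, an endothelin receptor of crest and glia, was higher, with 2178 and 2401 in BKF and 732 and 714 in KMF (1.66 ± 0.36, adjusted p = 0.00695). Of 9 smooth muscle markers, Myh11 and Actg2 were lower (22.2%, against 5.30% of all genes tested), at values of at most 20 and 5. None of the endothelial (6 tested), leukocyte (4), epithelial (1), pluripotency (3) and motile cilium (6) markers passed. Their part in the other results was not tested. Fits lacking 1 library gave 3 to 4 lower among the fibroblast markers, 0 to 1 higher and 1 to 2 lower among the neural crest and Schwann cell markers and 0 to 1 higher and 1 to 2 lower among the smooth muscle and myofibroblast markers. Leaving out 1 library, the calls of Twist1, Loxl1 and Mitf (whichever library was left out), Ednrb (without BKF replicate 2 or KMF replicate 2), Bgn (without BKF replicate 2) and Actg2 (without KMF replicate 1) were lost, at adjusted p of 0.0503 to 0.228.

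Proliferation genes did not pass in the fit over all libraries. Of 16 mitosis genes 0 passed in either direction, with 15 of 16 above 0 and a median difference of 0.33, and of 20 DNA replication genes 0 passed, with a median of 0.10. Mki67, a marker of dividing cells, had 7288 and 9950 in BKF and 4928 and 4710 in KMF (adjusted p = 0.622), and the mitotic kinase gene Aurka had 677 and 630 in BKF and 398 and 360 in KMF (adjusted p = 0.638). In both genes the sides did not overlap, which with 2 libraries a side is weak evidence of a difference. In a fit of the 4 libraries alone 9 of the 16 mitosis genes were higher and 1 lower, while 0 of 16 passed in either direction when the NSC libraries were left out. Of 21 genes of the G1 phase 1 was higher (4.76%, near the 4.96% of all genes tested) and 2 were lower (9.52%, against 5.30%). E2f3 was higher, with 982 and 919 in BKF and 747 and 618 in KMF (0.48 ± 0.10, adjusted p = 0.00471). The inhibitor gene Cdkn1c, with 16 and 9 in BKF and 66 and 56 in KMF, and Cdk6, with 1 and 0 in BKF and 4 and 6 in KMF, were lower. The count without 1 of the 4 libraries was 0 to 1 higher and 0 to 2 lower among the G1 cyclins, kinases and inhibitors. On removal of 1 library the calls of E2f3 (without BKF replicate 1 or KMF replicate 2), Cdk6 (without BKF replicate 2 or KMF replicate 2) and Cdkn1c (without BKF replicate 2) were lost, at adjusted p of 0.0545 to 0.120.

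Genes of the Myc network were followed because Myc is a common reprogramming factor. Of 11 tested, the antagonists Mnt and Mxd4 were lower in BKF (18.2%, against 5.30% of all genes tested) and 0 were higher. Mnt had 199 and 260 in BKF and 588 and 526 in KMF (-1.29 ± 0.19, adjusted p = 0.000392). Mxd4 had 2360 and 2585 in BKF and 4242 and 4304 in KMF (-0.79 ± 0.23, adjusted p = 0.0359). Of 21 Myc target and ribosome biogenesis genes 1 was lower in BKF (4.76%, near the 5.30% of all genes tested) and 0 were higher. Odc1, the first enzyme of polyamine synthesis, was the lower gene, with 3000 and 3194 in BKF and 8894 and 9950 in KMF (-1.60 ± 0.29, adjusted p = 0.00168). The median difference of this list was -0.03 in the embryonic pair. In the tail-tip pair 13 of the 21 were higher in BKF, against 6.75% of all genes tested, and 0 lower, with a median of 0.68. Nucleolar Ncl had 16127 and 15161 in embryonic BKF and 17984 and 17984 in embryonic KMF, against 10893 and 13046 in tail-tip BKF and 8217 and 8217 in tail-tip KMF. With a library left out the count was 1 lower among the Myc and Max network genes. In leave-one-out fits the call of Mxd4 (whichever library was left out) was lost, at adjusted p of 0.105 to 0.183.

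Genes of stress and immune responses passed mostly as lower in BKF. Of 15 genes of amino acid and unfolded protein stress 0 were higher and 2 lower in BKF (13.3%, against 5.30% of all genes tested), the phosphatase subunit gene Ppp1r15a with 188 and 186 in BKF and 570 and 638 in KMF (-1.68 ± 0.39, adjusted p = 0.00981) and the transcription factor gene Ddit3 with 49 and 54 in BKF and 98 and 92 in KMF (-0.87 ± 0.25, adjusted p = 0.0331). In the tail-tip pair 8 of the 15 were higher, against 6.75% of all genes tested, and 0 lower. Of 17 p53 targets 1 was lower (5.88%, near the share of all genes), the death gene Bbc3, with 213 and 180 in BKF and 430 and 452 in KMF (-1.17 ± 0.23, adjusted p = 0.00348), and 6 were lower without the NSC libraries. Of 16 interferon response genes 1 was higher (6.25%, against 4.96% of all genes), Ifitm3, which blocks viral entry, with 958 and 714 in BKF and 186 and 170 in KMF (2.21 ± 0.36, adjusted p = 0.000777), and 2 were lower (12.5%), Gbp2 with 18 and 13 in BKF and 46 and 38 in KMF and Ifit2 with 0 and 38 in BKF and 98 and 88 in KMF. Of 10 antigen presentation genes 1 was higher (10%) and 2 lower (20%). The peptide transporter genes Tap1, with 64 and 64 in BKF and 162 and 184 in KMF, and Tap2, with 9 and 14 in BKF and 50 and 59 in KMF (-2.18 ± 0.23, adjusted p = 1.49e-05), were lower, while the class I gene H2-K1, with 106 and 70 in BKF and 32 and 26 in KMF, was higher and has close paralogs. None of 20 cholesterol synthesis genes passed. Fits lacking 1 library gave 0 to 1 lower among the amino acid and unfolded protein stress genes, 1 to 2 higher among the interferon response genes and 0 to 1 higher among the antigen presentation genes. Without a single library the calls of Ddit3 (whichever library was left out), Ppp1r15a (without BKF replicate 1, BKF replicate 2 or KMF replicate 2), Ifit2 (without KMF replicate 1 or KMF replicate 2) and H2-K1 (without BKF replicate 1) were lost, at adjusted p of 0.0572 to 0.173.

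Of 19 imprinted genes, which are expressed from 1 parental copy, 2 were higher and 2 lower in BKF, or 10.5% each way, against 4.96% higher and 5.30% lower of all genes tested. Peg3, a paternally expressed zinc finger gene, had 5162 and 5539 in BKF and 2018 and 1883 in KMF (1.46 ± 0.15, adjusted p = 1.31e-05), and Nnat, a paternally expressed membrane protein of neurons, had 2018 and 1928 in BKF and 582 and 556 in KMF (1.79 ± 0.26, adjusted p = 0.000284). Igf2r, a maternally expressed receptor, had 646 and 798 in BKF and 1418 and 1494 in KMF (-1.02 ± 0.20, adjusted p = 0.00369), and Cdkn1c (above) was the other lower gene. All 4 embryonic libraries carried transcripts of the Y chromosome, in unequal amounts. They also held Xist, a transcript of the X chromosome, with 171 and 200 in BKF and 216 and 178 in KMF, which did not pass. Ddx3y, a helicase gene of the Y chromosome, had 826 and 808 in BKF and 2190 and 2203 in KMF (-1.43 ± 0.06, adjusted p = 2.69e-10), while the histone demethylase gene Kdm5d of the same chromosome went the other way, with 913 and 1002 in BKF and 481 and 488 in KMF (0.98 ± 0.10, adjusted p = 1.50e-05). Eif2s3y, with 501 and 510 in BKF and 556 and 494 in KMF, did not pass. Of 218 genes tested on the Y chromosome 1 was higher (0.46%) and 3 lower (1.38%) in BKF. Beside Ddx3y the lower ones were the predicted genes Gm47283, with 5163 and 4756 in BKF and 11652 and 10893 in KMF, and Gm21860, with 54 and 30 in BKF and 104 and 96 in KMF, both named after their values were seen. The count without 1 of the 4 libraries was 1 to 2 lower among the imprinted genes. With 1 library left out, the call of Igf2r (without BKF replicate 1) was lost, at adjusted p of 0.0545.

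The tail-tip lines made with the same cocktails give a second pair with no library in common. There BKF and KMF differed in 2110 genes (13.0%), 1098 higher (6.75%) and 1012 lower (6.22%), a count that was 2867 without tail-tip BKF replicate 1 and 894, 1007 and 989 without tail-tip BKF replicate 2, tail-tip KMF replicate 1 and tail-tip KMF replicate 2. Genes called in both pairs numbered 451, of which 208 had the same direction and 243 the opposite. The genes of the same direction were 12.46% of the embryonic calls and 9.86% of the tail-tip calls. The difference of the embryonic and tail-tip differences passed the test for 2132 genes (13.1%), among them 943 (56.47%) of the 1670 embryonic calls. The tail-tip fibroblasts also differed in age and tissue, which cannot be told apart from the line.

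Some genes followed the cocktail letters in both pairs. Mt3, a metallothionein of the brain, had 412 and 284 in embryonic BKF and 54 and 44 in embryonic KMF (2.79 ± 0.33), and 488 and 812 in tail-tip BKF and 94 and 92 in tail-tip KMF (2.75 ± 0.33). Ddr2, a collagen receptor kinase, had 451 and 554 in embryonic BKF and 130 and 110 in embryonic KMF, and 420 and 300 in tail-tip BKF and 59 and 44 in tail-tip KMF. Rtl8a had 451 and 501 in tail-tip BKF and 6 and 6 in tail-tip KMF, so that both KMF lines stood near 0 and both BKF lines well above, and the KF line had 753 and 659. Anxa2, a calcium-dependent membrane-binding protein, had 204 and 174 in embryonic BKF and 49 and 46 in embryonic KMF, and 738 and 1096 in tail-tip BKF and 195 and 212 in tail-tip KMF. The membrane skeleton gene Add2, the adhesion gene Igsf21, the fatty acid transport gene Slc27a3 and Pla2g7 were also higher in both, by 1.90, 2.26, 1.65 and 4.23 in the embryonic pair and 4.53, 1.95, 1.85 and 2.45 in the tail-tip pair on the log2 scale.

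Among genes lower in BKF in both pairs, Fkbp10, a chaperone of collagen folding, had 34 and 40 in embryonic BKF and 372 and 330 in embryonic KMF (-3.21 ± 0.34), and 86 and 91 in tail-tip BKF and 457 and 518 in tail-tip KMF (-2.45 ± 0.34). Agt had 751 and 938 in tail-tip BKF and 2372 and 2401 in tail-tip KMF, and Aqp4 had 223 and 187 in tail-tip BKF and 498 and 507 in tail-tip KMF, so both astrocyte genes were lower in the BKF line of each pair. The junction gene Jup had 174 and 224 in embryonic BKF and 486 and 451 in embryonic KMF, and 252 and 210 in tail-tip BKF and 905 and 931 in tail-tip KMF. Sned1, Plekhf1, the interleukin 11 receptor gene Il11ra1 and the protocadherin gene Pcdhb9, which has close relatives, were lower in both as well, by log2 differences of -1.93, -1.53, -1.18 and -1.31 in the embryonic pair and -1.41, -1.31, -1.22 and -1.20 in the tail-tip pair. In leave-one-out fits the calls of Il11ra1 (without BKF replicate 2, KMF replicate 1 or KMF replicate 2), Sned1 (without BKF replicate 1 or KMF replicate 1) and Jup (without BKF replicate 1) were lost, at adjusted p of 0.05 to 0.189.

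For other genes the directions were opposite. Nnat had 38 and 34 in tail-tip BKF and 1239 and 1270 in tail-tip KMF, lower in BKF where the embryonic pair was higher. Noct, a phosphatase gene with a daily rhythm, had 28063 and 28063 in embryonic BKF and 3733 and 3609 in embryonic KMF (2.93 ± 0.26), and 4930 and 3636 in tail-tip BKF and 11652 and 12124 in tail-tip KMF (-1.49 ± 0.26). Slc38a6, an amino acid transporter gene, had 12122 and 13042 in embryonic BKF and 2372 and 2274 in embryonic KMF (2.44 ± 0.20), and 3066 and 2658 in tail-tip BKF and 8417 and 9430 in tail-tip KMF (-1.64 ± 0.20). The protease gene Capn11 and the chondroitin sulphotransferase gene Chst3 did the same, by 1.77 and 1.70 in the embryonic pair and -1.63 and -1.56 in the tail-tip pair on the log2 scale. The embryonic call of Chst3 was lost with a pseudocount of 0.1 (adjusted p = 0.353) and with quantile normalisation (adjusted p = 0.0716). In the other sense, Aebp1, a collagen-binding protein of connective tissue, had 142 and 179 in embryonic BKF and 876 and 852 in embryonic KMF, and 160 and 110 in tail-tip BKF and 6 and 3 in tail-tip KMF. Camk1, a calcium-dependent kinase gene, had 350 and 284 in embryonic BKF and 1278 and 1427 in embryonic KMF, and 326 and 344 in tail-tip BKF and 14 and 18 in tail-tip KMF. Pcdhgb6, Lama4 and Dusp4 were likewise lower in embryonic BKF and higher in tail-tip BKF. Leaving out 1 library, the calls of Chst3, Aebp1 and Camk1 (whichever library was left out) were lost, at adjusted p of 0.0554 to 0.224.

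**Figure D4:**
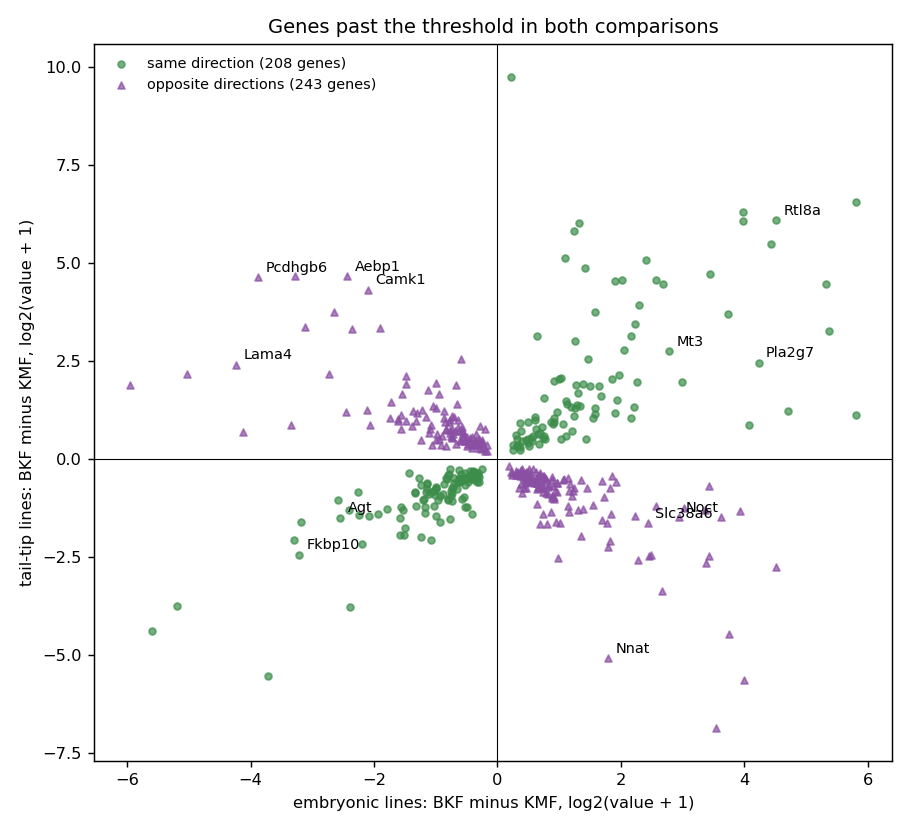
The 451 genes past the threshold in both pairs, with the embryonic difference (BKF minus KMF, log2(value + 1)) on the horizontal axis and the tail-tip difference on the vertical axis. The 208 genes of the same direction (circles) and the 243 of opposite directions (triangles) fill all 4 quadrants, and Rtl8a, Nnat and Pcdhgb6 are among the genes far from the centre.

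By chromosome, the genes lower in BKF were more frequent on chromosome 1 than on any other autosome. Of 959 genes tested there, 97 were lower (10.11%) and 29 higher (3.02%), while the share lower ranged from 3.98 to 6.47% over the other autosomes. The median difference on chromosome 1 was -0.07, against 0 to 0.06 on the other autosomes. Among 594 genes of chromosome 1 with a mean of 200 or more, the median was -0.10, and it was below 0 in 19 of 20 windows of 10 Mb, the smallest with 8 genes. Per library, the median deviation of these genes from their mean over the 20 miNSC libraries of the series, 4 of which are of the ICR mouse strain, was -0.144 and -0.126 in BKF and -0.012 and -0.002 in KMF. The same measure was -0.049 in both KF libraries, -0.09 and -0.102 in tail-tip BKF and -0.113 and -0.121 in tail-tip KMF. In a four-factor tail-tip line it was -0.1 and -0.106 at passage 8 and -0.032 and -0.02 at passage 18, while the passages of BKF and KMF were not labelled. The measure was 0.039 and 0.031 in a four-factor line from ear fibroblasts and 0.317 to 0.344 in the ICR libraries, which raise the mean that serves as 0. The values of BKF thus lay below those of KMF, with other Sox2-GFP lines near each. In the tail-tip pair the chromosome held 57 higher and 76 lower genes, with a median difference of 0.00. The windows and the values per library were chosen after the chromosome medians were seen.

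**Figure D5:**
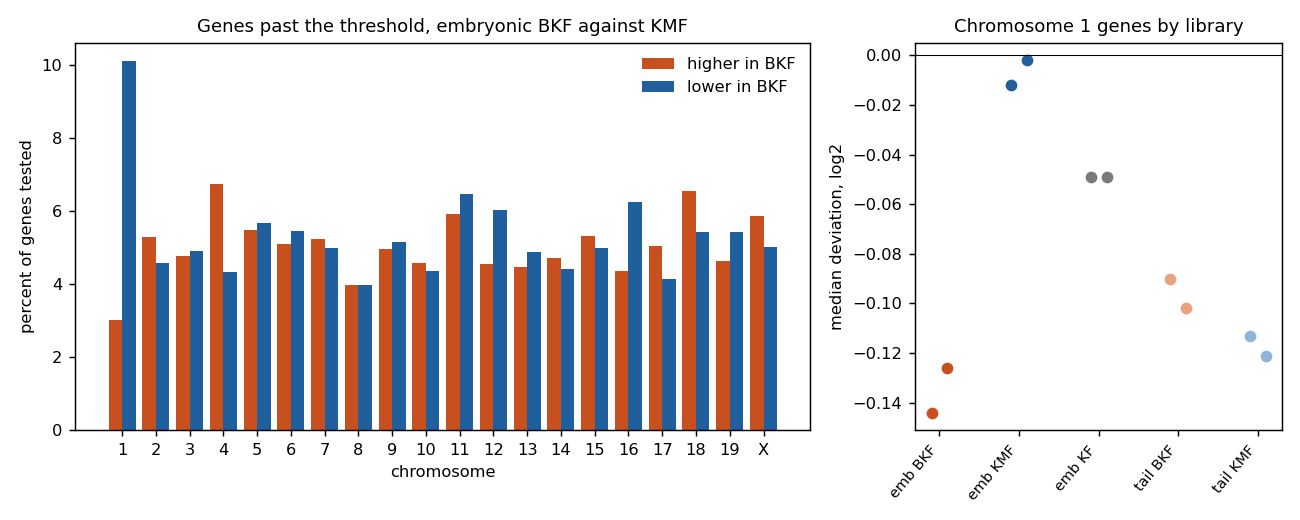
Left, the percent of tested genes on each chromosome that were higher or lower in BKF in the embryonic pair. Right, the median log2 deviation of 594 chromosome 1 genes in each library from their mean over the 20 miNSC libraries, 4 of them of the ICR strain at 0.317 to 0.344 and not drawn, which lies between -0.144 and -0.126 in embryonic BKF and between -0.012 and -0.002 in embryonic KMF.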

How the data were processed

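The authors deposited 1 table of 17295 genes by 28 libraries, whose whole-number values are a score on a normalised scale. Per the submitters' processing notes, RSEM and Bowtie2 2.0 were used with mm10. The normalisation step is not given in the sources used here, and since all libraries share nearly the same distribution no count model was applied. Libraries were grouped by their titles into 14 groups of 2.

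Values were taken as log2(value + 1), and 16275 genes with a mean of at least 10 were fitted with limma 3.58.1 (R 4.3.3, trend on the mean) over all 28 libraries, which share 1 estimate of the spread. Contrasts were BKF minus KMF in the embryonic and the tail-tip lines and the difference of both, with Benjamini-Hochberg adjustment over all genes tested and a threshold of 0.05. The fit was tested on simulated data. Gene IDs all matched GENCODE M21.

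Members and gene lists were chosen with earlier results of these data known. Named were the 12 largest changes in each direction without overlap and with a mean of at least 100 on a side, the 6 highest genes listed at 0 on a side, the 4 smallest adjusted p of each list, all factor, Hox and sex-linked genes (some given only in counts), and the 8 (same direction) or 5 (opposite directions) largest changes per direction shared with the tail-tip pair. Some genes these rules pick are not reported here. Other list members were named after their values were seen. Alternatives were the pseudocount, the filter, normalisation, variance model, the libraries in the fit, a replicate block, leaving out each library, and leaving out genes at tied or stepped values.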

Additional observations from a re-analysis of the deposited data

Results flagged for a closer look

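Each result here is the embryonic difference (BKF minus KMF) minus the tail-tip difference (BKF minus KMF), in log2(value + 1), with an adjusted p under 0.05 in limma. It was met by 15 of 22 genes ranked by size in the embryonic pair, against 13.1% of all genes tested and 56.47% of the embryonic calls. The embryonic difference is part of this quantity, so ranking by it makes a pass likely. Among genes higher in embryonic BKF it was 3.50 for Plcd1, 4.62 for Pgbd1, 3.75 for Eno1b, 4.28 for Tox2 and 3.22 for Mmp14. Rtl8a and Ier3 were higher in the BKF line of both pairs, by more in the tail-tip pair, and gave -1.57 and -2.31. Among genes lower in embryonic BKF it was -7.82 for Rasal1, -4.10 for Rtn4rl1, -2.95 for Igfbp7, -6.63 for Lama4, -4.80 for Dpysl3, -3.83 for Csrnp1, -4.66 for Socs3 and -8.50 for Pcdhgb6.

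All 10 genes named for passing in opposite directions in the pairs met it, as their choice makes likely. Besides Lama4 and Pcdhgb6, the values were 6.88 for Nnat, 4.08 for Slc38a6, 3.40 for Capn11, 3.26 for Chst3 and 4.42 for Noct where embryonic BKF was higher, and -7.09 for Aebp1, -6.41 for Camk1 and -3.17 for Dusp4 where embryonic BKF was lower. Of 6 genes of candidate cocktail factors 3 met it, against 13.1% of all genes tested. The values were 2.58 for Pou3f4, -1.82 for Myc and -2.34 for Sox17. Whether line, cocktail, age or tissue of the fibroblasts accounts for these differences cannot be told apart, and single genes of this comparison were not recomputed under other settings.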

How the results depend on the processing

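The count of genes called in the embryonic pair, 1670, stayed between 1574 and 1847 with a pseudocount of 10 or 0.1, no filter on low values, a mean of at least 50, quantile normalisation, another variance model, the 4 libraries alone, or without genes at the highest tied value or, an alternative chosen after seeing the data, without genes that step from 0 to 20 or more. With the 20 miNSC libraries only, 2542 genes were called in the embryonic pair, 3236 in the tail-tip pair and 3270 for the difference of differences. Without the NSC libraries the counts were 2724, 3516 and 3519. Same-numbered libraries did not deviate together (correlation of replicate 1 minus replicate 2 between BKF and KMF of 0.045 in the embryonic and -0.029 in the tail-tip pair), so the numbers are only shared. With the replicate block over 26 libraries, 2710, 3528 and 3531 genes were called, against the fit without the block on the same libraries just given. With 1 library left out, the lone library was taken to vary like the other groups. The counts then ranged from 868 to 982 (embryonic pair), 894 to 2867 (tail-tip pair) and 1355 to 2802 (difference of differences), and the genes called and at least 2-fold from 497 to 540.

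Of 163 called genes among those ranked, listed or factor genes, 40 lost their call with the 4 libraries alone, 17 with a pseudocount of 0.1, 9 with a pseudocount of 10 and 58 to 61 with 1 library left out, while 0 did without the NSC libraries or with the block. No direction of these genes reversed under any setting. With 2 libraries a group and no read depth, small differences and low values cannot be resolved, and ties limit the most abundant genes.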
